A study of Mus musculus with 25 samples.

Results

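The 10 genes described here, Cdkn2a, Cdkn1a, Mdm2, Ccng1, Phlda3, Eda2r, Sesn2, Bbc3, Trp53inp1 and Zmat3, are a marker of cell senescence and a set of transcriptional targets of the tumour suppressor p53. They were chosen by name and found in the count table by their Ensembl identifiers, 10 of 47729 listed genes. RNA sequencing of total RNA was done on brain hemispheres of male C57BL/6 mice aged 2, 9, 15, 24 or 30 months, with 5 libraries per age and 25 in all. All groups share strain, sex and tissue, and the labels name no treatment or mutation, so age is the only labelled difference. Libraries are named by age and replicate number. The labels do not say in words that the libraries of an age come from separate animals, so the p values measure only the spread between these libraries.

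p53 is a transcription factor that is stabilised by DNA damage and other stress and switches on genes that halt the cell cycle, repair DNA or start apoptosis. One of its targets, Mdm2, marks p53 for degradation, which closes a negative feedback loop. Cell senescence is a lasting arrest of division that is held by the cyclin-dependent kinase inhibitors p21, from Cdkn1a, and p16Ink4a, from Cdkn2a, and is often joined by secretion of cytokines and proteases.

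p53 binds a response element made of a pair of adjacent motifs of 10 bases. The promoter windows of RefSeq for GRCm38.p6, from 250 bases before to 50 bases after a gene start, were read on both strands for this element with no spacer, at most 2 mismatches, and the core C and G of each motif intact. Of the 8 genes with a window, 2 held a match, Cdkn1a and Ccng1, against 106 of 27025 genes (0.392%) with a window. Each match had 1 mismatch and was found at the same place on both strands, and with at most 1 mismatch 22 genes (0.0814%) held one. The surroundings of both matches are shown, 120 bases each, written 5′ to 3′ along the strand of the gene with the matched element in capitals. The Ccng1 stretch is chr11:40755412-40755531 on the minus strand, 245 to 126 bases before the start. The Cdkn1a stretch is chr17:29090855-29090974 on the plus strand, 124 to 5 bases before the more upstream of its 2 listed starts. The window of the other Cdkn1a start, 29093519 to 29093818, held no match.
Ccng1: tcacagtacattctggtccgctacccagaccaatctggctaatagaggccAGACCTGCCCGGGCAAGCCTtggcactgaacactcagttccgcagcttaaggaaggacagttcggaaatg
Cdkn1a: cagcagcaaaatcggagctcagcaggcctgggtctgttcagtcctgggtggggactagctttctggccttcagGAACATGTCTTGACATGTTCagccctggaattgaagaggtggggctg
A match describes letters only and is neither a shown binding site nor a cause, and the windows of the other 6 genes hold no such letters within the limits set. Trp53inp1 and Zmat3 have no window.

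Libraries held 17800113 to 31261121 counts. In replicates 2 to 5 of 30 months, genes of high GC content read high and genes of low GC content read low. The log2 gap between the GC-rich and the GC-poor genes was 1.08 to 1.97 in these 4 libraries and -0.25 to 0.15 in the other 21. A correction of this lean brought it to 0.11 to 0.19 and -0.01 to 0.01. Results at 30 months are therefore given uncorrected, GC corrected and with replicate 1 as the only 30 month library. Comparisons among 2 to 24 months were fitted to the 20 libraries of those ages. Defining markers of neurons, astrocytes, oligodendrocytes and microglia were detected at every age.

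Levels are in CPM, that is per 1000000 counts of the library as scaled by TMM. The genes spanned a wide range: per kilobase of exon and as a mean of the 20 younger libraries, Ccng1 stood at 29.0 CPM, Phlda3 at 12.2, Zmat3 at 11.3 and Mdm2 at 8.93. Cdkn1a stood at 4.11 CPM per kilobase, Sesn2 at 3.66, Trp53inp1 at 3.64 and Bbc3 at 1.21. Eda2r at 0.13 and Cdkn2a at 0.0827 CPM per kilobase were far below. Cdkn2a was under 0.5 CPM in all 25 libraries and did not pass the filter on low counts, and Eda2r was under 0.5 CPM in 4 libraries. The other 8 genes were above 0.5 CPM in each library, so 9 of the 10 genes were tested. The plot of levels by library shows each gene at each age.

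**Figure D1:**
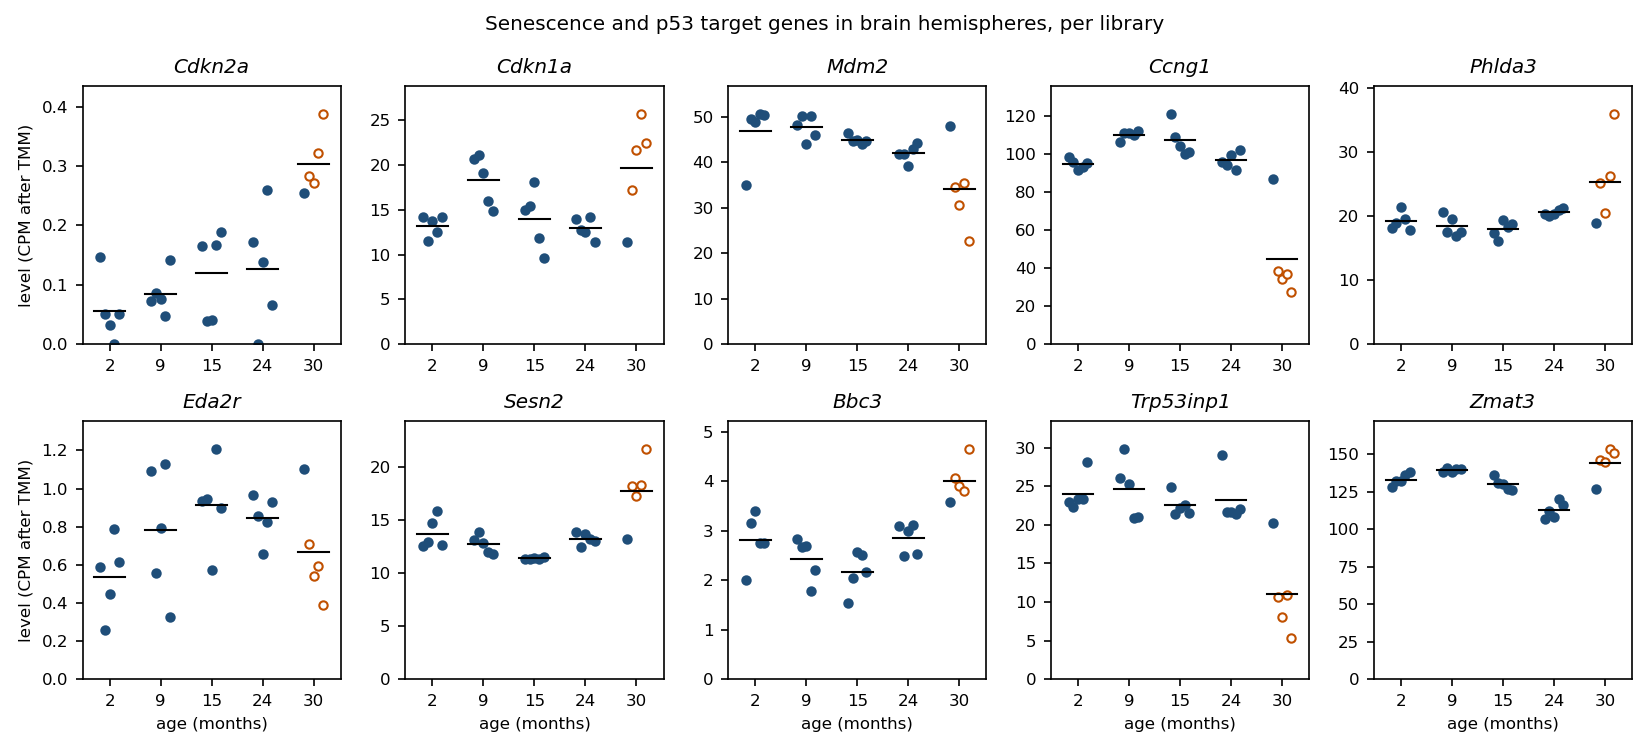
Level of each of the 10 genes in each library (CPM after TMM scaling, y axis from 0) by age in months, with a black bar at the mean of 5 libraries. Open orange circles are replicates 2 to 5 of 30 months, whose GC gap was 1.08 to 1.97, and filled circles are the other 21 libraries. Zmat3 sits lowest at 24 months (107 to 120 CPM), and Cdkn1a is higher at 9 months (14.8 to 21.1 CPM) than at 2 months (11.5 to 14.2 CPM).

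The set did not move as a block with age. Of the 9 tested genes, 2 rose from 2 to 9 months (Cdkn1a and Ccng1) and none fell. Of the 17799 genes tested, 14.7% changed at an adjusted p under 0.05, 8.42% upward and 6.33% downward. From 2 to 15 months 1 rose (Ccng1) and 1 fell (Sesn2), where 6.02% of all genes rose and 6.58% fell, 12.6% in all. From 2 to 24 months 1 fell (Zmat3) and none rose, where 10.2% of all genes rose and 12.3% fell, 22.5% in all. The linear trend over 2 to 24 months gave 1 fall, Zmat3 again, where 7.76% of all genes rose and 9.02% fell, 16.8% in all.

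The median change of the 9 genes was 0.04 on the log2 scale from 2 to 9 months, -0.06 to 15 and -0.04 to 24 months, beside -0.00 over all genes tested. The pairs with 2 months share the same 5 libraries of 2 months. At 24 months, 1 gene had a rise with an unadjusted p under 0.05 (Eda2r) and 2 had a fall (Mdm2 and Zmat3). Of all 17799 genes tested, 2838 had such a rise and 3309 such a fall. DESeq2 and limma-voom each gave 0 rises and 1 fall there among the 9 genes. Over all genes DESeq2 gave 1770 rises and 2021 falls, and limma-voom 1895 and 2230.

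**Figure D2:**
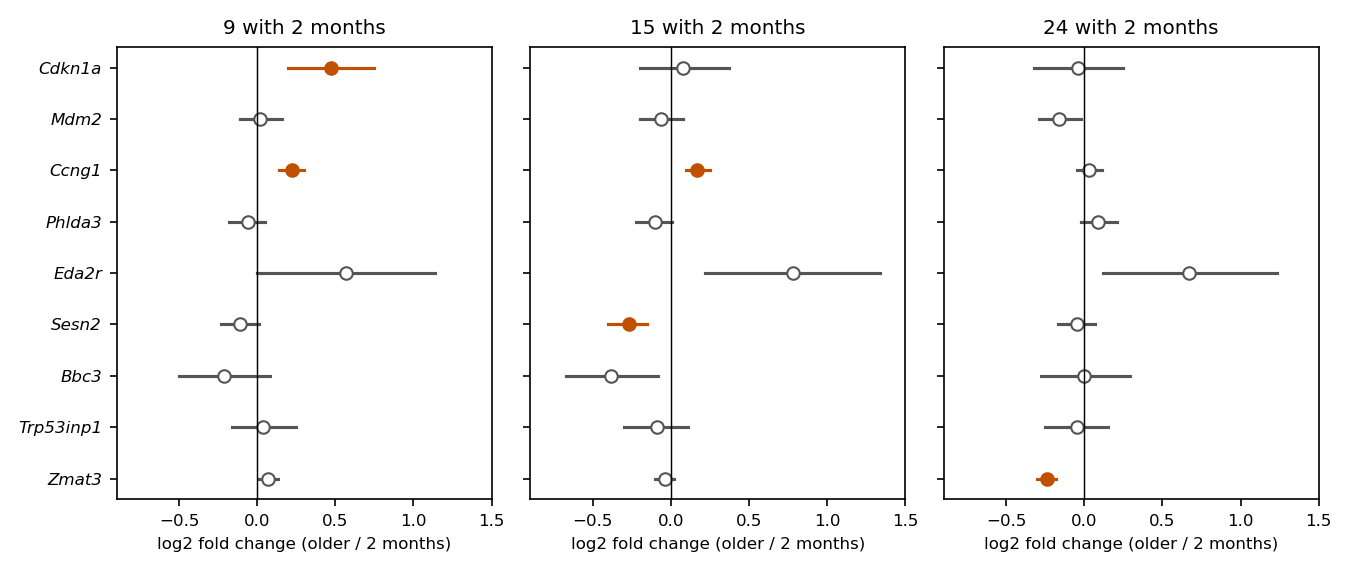
Log2 fold change of the 9 tested genes at 9, 15 and 24 months against 2 months, with its 95% interval (x axis in log2 units). Filled orange points have an adjusted p under 0.05 over all genes: Cdkn1a and Ccng1 at 9 months, Ccng1 and Sesn2 at 15 months, and Zmat3 at 24 months.

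From 15 to 24 months 2 genes rose (Phlda3 and Sesn2) and 2 fell (Ccng1 and Zmat3), where 10.8% of all genes rose and 12.9% fell, 23.8% in all. With the GC correction 1 of these, Zmat3, still passed, where 12.9% of genes did. The GC gap was -0.25 to -0.08 in the libraries of 15 months and 0.06 to 0.15 in those of 24 months. A comparison of 24 with 9 months was added after the values were seen: 1 gene rose (Phlda3) and 3 fell (Cdkn1a, Ccng1 and Zmat3), where 13.7% of all genes rose and 16.8% fell, 30.5% in all.

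Read as separation of libraries, all 5 of the older age lay on one side of all 5 of the younger age for 2 of the 9 genes at 9 and 2 months, where 9.88% of all genes tested did so. The same held for 2 genes at 15 and 2 months (10.3% of genes) and for 1 at 24 and 2 months (14.5%). It held for 3 genes at 24 and 15 months (16.5%) and for 3 at 24 and 9 months (18.1%). Bulk RNA cannot tell fewer cells of a type from less RNA per cell, which applies to each of these results.

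Zmat3 (ENSMUSG00000027663, chromosome 3, 32334792 to 32366014, minus strand, GRCm38) encodes a zinc finger protein that binds RNA and acts on splicing and transcript stability downstream of p53. It stood at 128, 132, 132, 136 and 138 CPM at 2 months and at 138, 141, 138, 140 and 140 CPM at 9 months. At 15 months it stood at 136, 131, 130, 127 and 126 CPM, and at 24 months at 107, 112, 108, 120 and 116 CPM. All 5 libraries of 24 months were below all 15 libraries of the younger ages.

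Zmat3 fell by 0.24 on the log2 scale from 2 to 24 months (SE 0.03, edgeR adjusted p = 1.12e-06), to 0.845 of its level. The fall from 15 to 24 months was by 0.21 (SE 0.03, edgeR adjusted p = 2.56e-05). Over 2 to 24 months the linear trend fell by 0.12 per 10 months (SE 0.021, edgeR adjusted p = 0.000265). The level did not decline evenly: 9 months differed from 2 months by 0.07 (edgeR adjusted p = 0.134) and 15 months by -0.04 (edgeR adjusted p = 0.473). Against 9 months, the comparison added later, the fall was by 0.31 (edgeR adjusted p = 1.14e-07), with rank 2 of 17799 genes by p. The fall from 2 to 24 months passed in each of 28 alternatives, with log2 changes of -0.27 to -0.23 and adjusted p of 5.32e-12 to 0.00169.

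Of 12777 genes with a mean of at least 2 CPM, the 3 whose log2 levels ran most like those of Zmat3 over the 20 libraries of 2 to 24 months were Mapk14, a stress-activated kinase of the p38 family (r = 0.961), Tmcc1, a protein of the endoplasmic reticulum (r = 0.951), and Tmem64, a membrane protein (r = 0.947). Mapk14 had means of 115, 122, 114 and 102 CPM at 2, 9, 15 and 24 months, the same order of ages as Zmat3 at means of 133, 140, 130 and 113 CPM. The points of these correlations share library, depth and age.

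Cdkn1a (ENSMUSG00000023067, chromosome 17, 29090976 to 29100727, plus strand) encodes p21, which stops the cell cycle by binding cyclin-dependent kinases. It stood at 14.2, 11.5, 13.7, 12.5 and 14.2 CPM at 2 months and at 20.6, 21.1, 19.1, 16 and 14.8 CPM at 9 months, and these ages did not overlap. At 15 months it ranged more widely than at 2, 9 or 24 months, with 15, 15.4, 18.1, 11.8 and 9.62 CPM. At 24 months it was back close to the range of 2 months, with 14, 12.7, 12.5, 14.2 and 11.4 CPM.

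From 2 to 9 months Cdkn1a rose by 0.47 on the log2 scale (SE 0.14, edgeR adjusted p = 0.0297), 1.39-fold. The difference between 24 and 2 months was -0.04, with an interval of -0.32 to 0.25 (edgeR adjusted p = 0.891). From 9 to 24 months it fell by 0.51 (SE 0.14, edgeR adjusted p = 0.00931). The rise at 9 months passed in 20 of 28 alternatives, with adjusted p of 0.00835 to 0.155. It was lost without 2 months replicate 2, 3 or 4 (adjusted p = 0.0749, 0.051 and 0.0618), without 9 months replicate 1, 2 or 3 (0.077, 0.0759 and 0.0607), with no filter on low counts (0.0567) and in the fit of all 25 libraries (0.155). The fall from 9 to 24 months was lost in the fit of all 25 libraries (adjusted p = 0.0554) and with Alb, a liver transcript, as a covariate (0.0504). An unclassified gene model on the opposite strand shares 273 exon bases with Cdkn1a and has no counts of its own in the table. Whether the counting used strand is not given in the sources used here.

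Ccng1 (ENSMUSG00000020326, chromosome 11, 40748552 to 40755311, minus strand) encodes an atypical cyclin that brings a phosphatase to Mdm2 and so acts back on p53. It stood at 98.2, 95.4, 91.4, 92.9 and 95.3 CPM at 2 months and at 106, 111, 111, 110 and 112 CPM at 9 months. At 15 months it stood at 121, 109, 104, 99.7 and 101 CPM, and at 24 months at 95.6, 94.1, 99.5, 91.7 and 102 CPM. The libraries of 9 and of 15 months lay above all 5 of 2 months, and those of 24 months overlapped with 2 months.

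Ccng1 rose by 0.22 on the log2 scale from 2 to 9 months (SE 0.039, edgeR adjusted p = 0.000285), 1.16-fold. Its rise from 2 to 15 months was 0.17 (SE 0.039, edgeR adjusted p = 0.00374), and 24 months differed from 2 months by 0.03, with an interval of -0.05 to 0.11 (edgeR adjusted p = 0.618). From 9 to 24 months it fell by 0.19 (SE 0.039, edgeR adjusted p = 0.000486). In the fit of all 25 libraries, which shares 1 estimate of spread with 30 months, these calls were lost, with adjusted p of 0.667 at 9, 0.791 at 15 and 0.565 for 24 against 9 months. The fall from 15 to 24 months, by 0.14 (edgeR adjusted p = 0.00814), was lost with the GC correction (-0.05, adjusted p = 0.368) and in the fit of all 25 libraries (adjusted p = 0.725).

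Mdm2 (ENSMUSG00000020184, chromosome 10, 117688875 to 117710758, minus strand) encodes the ubiquitin ligase that degrades p53. At 2 months it had 35.1 CPM in replicate 1 and 49.5, 48.8, 50.7 and 50.4 CPM in the others. It stood at 44.1 to 50.1 CPM at 9 months, at 44.1 to 46.4 CPM at 15 months and at 39.3 to 44.2 CPM at 24 months. Apart from that 1 low library, the libraries of 2 months were above all 5 of 24 months.

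With all libraries the difference of Mdm2 between 24 and 2 months was -0.16 on the log2 scale (SE 0.07, edgeR adjusted p = 0.114). Without 2 months replicate 1 it was -0.24 (edgeR adjusted p = 5.33e-05), the only 1 of 28 alternatives that passed. The trend was likewise -0.08 per 10 months with all libraries (edgeR adjusted p = 0.0663) and -0.11 without that library (edgeR adjusted p = 0.000125). Whether the low value belongs to the animal or to the library was not tested.

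Sesn2 (ENSMUSG00000028893, chromosome 4, 132492032 to 132510501, minus strand) encodes a stress-induced inhibitor of the growth kinase complex mTORC1. It stood at 12.5, 12.9, 14.7, 15.8 and 12.6 CPM at 2 months and at 11.3, 11.3, 11.4, 11.3 and 11.5 CPM at 15 months, with an SD of 0.115 CPM at the latter age. The values of 9 months, 11.8 to 13.8 CPM, and of 24 months, 12.4 to 13.8 CPM, were above all 5 of 15 months. Sesn2 fell by 0.27 on the log2 scale from 2 to 15 months (SE 0.063, edgeR adjusted p = 0.00444). This fall kept an adjusted p of 0.0479 with the GC correction and was lost in the fit of all 25 libraries (0.178). From 15 to 24 months Sesn2 rose by 0.22 (SE 0.062, edgeR adjusted p = 0.00879), which was lost with the GC correction (0.11, adjusted p = 0.263) and in the fit of all 25 libraries (0.218).

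Phlda3 (ENSMUSG00000041801, chromosome 1, 135766119 to 135769136, plus strand) encodes a small protein that keeps the kinase Akt from the membrane. It stood at 16.1 to 19.4 CPM at 15 months and at 20.1 to 21.3 CPM at 24 months, with no overlap, and at 17.9 to 21.5 CPM at 2 months. The rise from 15 to 24 months was 0.20 on the log2 scale (SE 0.059, edgeR adjusted p = 0.0147). It was lost with the GC correction (0.06, adjusted p = 0.525), in the fit of all 25 libraries (0.401) and without 15 months replicate 2 (0.0666). The rise from 9 to 24 months was 0.15 (edgeR adjusted p = 0.0432), with overlapping libraries. It passed in 17 of 28 alternatives and was lost, among others, with Alb as a covariate (0.543) and without any single library of 24 months or without 9 months replicate 2, 4 or 5 (adjusted p of 0.0506 to 0.124 in these fits).

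Bbc3 (ENSMUSG00000002083, chromosome 7, 16308393 to 16318205, plus strand) encodes Puma, a trigger of apoptosis at the mitochondrion. It was low, at 2 to 3.4 CPM at 2 months, 1.79 to 2.84 CPM at 9 months, 1.54 to 2.57 CPM at 15 months and 2.48 to 3.12 CPM at 24 months. At 15 months it differed from 2 months by -0.38 on the log2 scale (SE 0.15, edgeR adjusted p = 0.1), and at 24 months from 15 months by 0.38 (SE 0.15, edgeR adjusted p = 0.0589). Neither passed. Over their alternatives the adjusted p ran from 0.0301 to 0.287 and from 0.0405 to 0.258. The first passed with Alb as a covariate (0.0341) and without 2 months replicate 1 (0.0301). The second passed with scaling by total counts alone (0.046) and without 2 months replicate 1, 9 months replicate 4, or 15 months replicate 3 or 4 (0.0405 to 0.048).

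Trp53inp1 (ENSMUSG00000028211, chromosome 4, 11156431 to 11174379, plus strand) encodes a stress protein that takes part in autophagy and in p53 signalling. It stood at 22.3 to 28.2 CPM at 2 months, 20.9 to 29.9 CPM at 9 months, 21.4 to 24.9 CPM at 15 months and 21.4 to 29 CPM at 24 months, all overlapping. The difference between 24 and 2 months was -0.05 on the log2 scale, with an interval of -0.25 to 0.15 (edgeR adjusted p = 0.794). It passed in no pair among 2 to 24 months and not in the trend, under any of the 27 or 28 alternatives of each.

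Eda2r (ENSMUSG00000034457, chromosome X, 97333840 to 97377216, minus strand) encodes a receptor of the tumour necrosis factor family for ectodysplasin A2. It stood at 0.586, 0.255, 0.448, 0.786 and 0.614 CPM at 2 months and at 0.965, 0.856, 0.654, 0.823 and 0.93 CPM at 24 months. Those ages overlapped in 1 library each, 0.786 CPM at 2 months and 0.654 CPM at 24 months. At 9 months it ranged from 0.328 to 1.13 CPM and at 15 months from 0.57 to 1.21 CPM.

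The difference of Eda2r between 24 and 2 months was 0.67 on the log2 scale with an interval of 0.12 to 1.23 (SE 0.28, edgeR adjusted p = 0.0847), larger in size than that of any other of the 9 genes and not past the test. Over 28 alternatives it was 0.51 to 0.83, with adjusted p of 0.0503 to 0.229. At 15 months the difference was 0.78 (edgeR adjusted p = 0.071), and without 2 months replicate 4, 9 months replicate 5 or 15 months replicate 3 it passed (adjusted p = 0.0469, 0.0468 and 0.0412). The trend was 0.26 per 10 months (edgeR adjusted p = 0.151).

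Cdkn2a (ENSMUSG00000044303, chromosome 4, 89274471 to 89294653, minus strand) encodes p16Ink4a and, in another reading frame, p19Arf, an inhibitor of Mdm2. Counts per gene cannot tell the transcripts of these proteins apart. The 5 libraries held 3, 1, 1, 0 and 1 counts at 2 months, 2, 2, 2, 1 and 3 at 9 months and 3, 1, 1, 4 and 4 at 15 months. They held 5, 0, 4, 6 and 2 counts at 24 months and 6, 6, 7, 7 and 8 counts at 30 months. Summed over the 5 libraries, this is 6, 10, 13, 17 and 34 counts from the youngest to the oldest age.

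Per 1000000 counts, Cdkn2a stood at 0.0549 at 2 months (95% exact Poisson interval 0.0201 to 0.119, counting error only) and at 0.127 at 24 months (0.074 to 0.203). The libraries of 24 and 2 months overlapped, with means of 0.127 and 0.0561 CPM (two-sided exact permutation p = 0.206, 0.361 adjusted over 7 pairs of ages). No pair among 2 to 24 months passed, with exact permutation p of 0.127 to 0.905, and a single pair cannot pass in this design, since the smallest possible p of 0.00794 becomes 0.0556 over 7 pairs. At 30 months the level was 0.313 per 1000000 counts (0.217 to 0.437), and the 5 libraries of 30 months, at 0.255, 0.283, 0.271, 0.321 and 0.388 CPM, were above all 5 of 2 months, at 0 to 0.146 CPM. The exact permutation p of 30 against 2 months was 0.00794, that smallest value, and 0.0556 after adjustment. Against 24 months it was 0.0159, also 0.0556 adjusted, with overlap.

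Replicate 1 of 30 months, the library without the GC lean, held 6 counts of Cdkn2a at 0.255 CPM, which is above all libraries of 2 months and just below the highest of 24 months at 0.26 CPM. After the GC correction the mean of 30 months was 0.241 ± 0.0162 CPM (SD, n = 5), against 0.0561 at 2 months and 0.123 at 24 months (exact permutation p = 0.00794 and 0.0397, adjusted 0.0556 and 0.139). That SD comes from 6 to 8 counts per library and does not measure their counting error. In an edgeR fit with no filter on low counts, Cdkn2a was higher at 30 than at 2 months by 2.34 on the log2 scale (adjusted p = 0.0014), and by 2.03 with the GC correction (adjusted p = 0.00611). Against 24 months the same fits gave 1.22 (edgeR adjusted p = 0.0423) and 0.95 (edgeR adjusted p = 0.144). Its transcript has a GC content of 60.2%.

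At 30 months the 2 genes of lowest GC content among those that changed fell furthest, and 4 of the 5 that rose were the 4 of highest GC content. Uncorrected, 5 of 9 genes rose from 2 to 30 months (Cdkn1a, Phlda3, Sesn2, Bbc3 and Zmat3) and 3 fell (Mdm2, Ccng1 and Trp53inp1), where 27.8% of all genes rose and 29.9% fell, 57.8% in all. With the GC correction 2 rose (Eda2r and Zmat3) and 3 fell (Mdm2, Ccng1 and Trp53inp1), where 45.5% of genes changed. With replicate 1 as the only 30 month library no gene of the 9 passed, where 7.52% of all genes did, in a test in which 1 library is assumed to vary like the other ages. In that fit 1 of the 9, Eda2r, had an unadjusted p under 0.05 (0.0243).

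Against 24 months the same 5 genes rose and the same 3 fell, where 25.4% of all genes rose and 29% fell, 54.5% in all. The GC correction left 3 rises (Cdkn1a, Sesn2 and Zmat3) and 2 falls (Ccng1 and Trp53inp1), where 41.3% of genes changed, and replicate 1 alone left none, where 2.33% of all genes passed, with Ccng1 (0.0297) and Zmat3 (0.00163) at an unadjusted p under 0.05. The 5 libraries of 30 months did not overlap with those of 24 months for 4 genes, higher for Bbc3 and Zmat3 and lower for Ccng1 and Trp53inp1, where 16.5% of all genes did not. Against 2 months they did not overlap for 3 genes, Bbc3, Ccng1 and Trp53inp1, where 23.9% of genes did not.

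**Figure D3:**
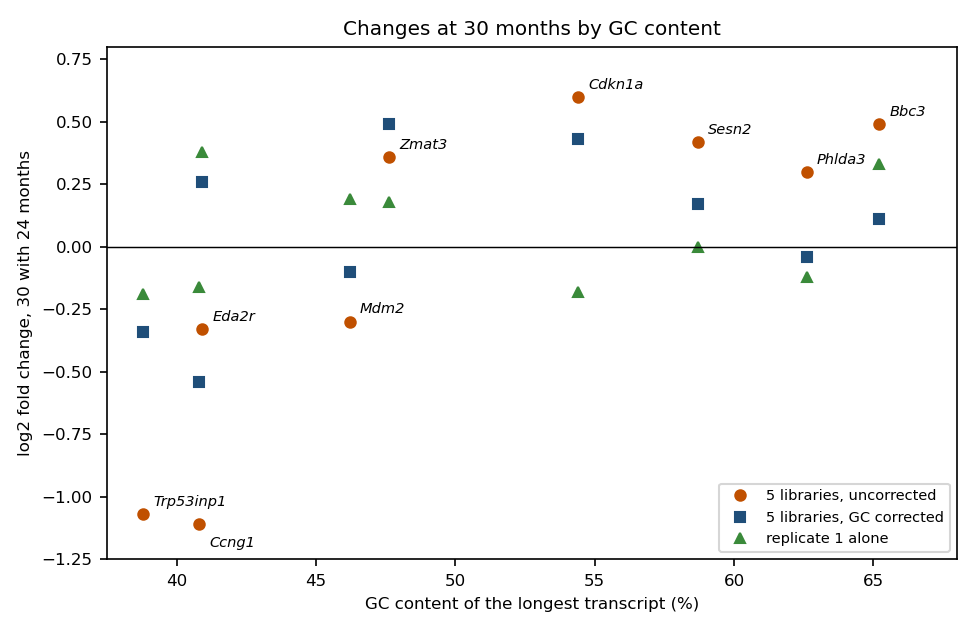
Log2 fold change of 30 with 24 months (y axis) of the 9 tested genes by GC content of the longest transcript in percent (x axis), uncorrected with 5 libraries (orange circles), GC corrected (blue squares) and with replicate 1 as the only 30 month library (green triangles). Uncorrected, the most GC-poor genes, Trp53inp1 and Ccng1, lie at -1.07 and -1.11, and the 4 most GC-rich genes lie at 0.30 to 0.60; the corrected values lie nearer to 0 for 8 of the 9 genes, all but Zmat3.

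Trp53inp1 (GC content 38.8%) had 20.3 CPM in the first replicate of 30 months, against 10.6, 8.01, 10.9 and 5.39 CPM in replicates 2 to 5. Ccng1 (40.8%) had 86.7 CPM in replicate 1 against 38.4, 34, 37 and 27.4 CPM in the others. In both genes the library without the GC lean was far above the other 4 and below the lowest library of the younger ages, 20.9 CPM for Trp53inp1 and 91.4 CPM for Ccng1. The log2 change of Ccng1 from 24 months was -1.11 uncorrected, -0.54 GC corrected (edgeR adjusted p = 3.84e-06) and -0.16 with replicate 1 alone (edgeR adjusted p = 0.283). The same 3 values for Trp53inp1 were -1.07, -0.34 (edgeR adjusted p = 0.0156) and -0.19 (edgeR adjusted p = 0.699).

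At the GC-rich end, Phlda3 (62.6%) stood at 19 CPM in replicate 1 and at 25.1, 20.5, 26.2 and 36 CPM in the others. Its change from 24 months was 0.30 uncorrected, -0.04 GC corrected (edgeR adjusted p = 0.643) and -0.12 with replicate 1 alone. Bbc3 (65.2%) stood at 3.57 CPM in replicate 1 and at 4.06, 3.91, 3.81 and 4.66 CPM in the others, with changes of 0.49, 0.11 (edgeR adjusted p = 0.524) and 0.33. Sesn2 (58.7%) stood at 13.2 CPM and at 18.2, 17.2, 18.3 and 21.7 CPM, with changes of 0.42, 0.17 (edgeR adjusted p = 0.0316) and -0.00. For these genes the level of replicate 1 lay within the range of the younger ages, except for Bbc3, where it was just above it.

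Cdkn1a (54.4%) had 11.4 CPM in replicate 1 of this age, within the range of 2 and of 24 months, and at 17.2, 21.6, 25.7 and 22.4 CPM in replicates 2 to 5. Its change from 24 months was 0.60 uncorrected (edgeR adjusted p = 0.00366), 0.43 GC corrected (edgeR adjusted p = 0.0273) and -0.18 with replicate 1 alone (edgeR adjusted p = 0.82). Against 2 months the GC corrected change was 0.37 (edgeR adjusted p = 0.0554). So the higher level rests on the 4 libraries that stand apart, also after the correction.

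Mdm2 (46.2%) stood at 47.9 CPM in replicate 1 and at 34.5, 30.6, 35.4 and 22.7 CPM in the others. Its change from 2 months was -0.45 uncorrected (edgeR adjusted p = 0.00256), -0.24 GC corrected (edgeR adjusted p = 0.0272) and 0.03 with replicate 1 alone (edgeR adjusted p = 0.917). Against 24 months the GC corrected change was -0.10 (edgeR adjusted p = 0.382).

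Zmat3 (47.6%) moved the other way under the correction. Its uncorrected levels were 127 CPM in replicate 1 and 146, 145, 154 and 151 CPM in replicates 2 to 5, all above the 107 to 120 CPM of 24 months. GC corrected they were 128, 158, 161, 170 and 181 CPM. The rise from 24 to 30 months was 0.36 uncorrected (SE 0.045, edgeR adjusted p = 3.99e-06), 0.49 GC corrected (edgeR adjusted p = 3.63e-07) and 0.18 with replicate 1 alone (SE 0.052, edgeR adjusted p = 0.0631). Against 2 months the 3 values were 0.12, 0.26 and -0.06. So the direction from 24 months was upward in each of the 3 fits, and the direction from 2 months was not.

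Eda2r (40.9%) had 1.1 CPM in replicate 1, above the 0.708, 0.542, 0.596 and 0.388 CPM in the others. GC corrected, the 5 libraries stood at 1.15, 1.13, 0.971, 1.03 and 0.86 CPM, all above the 0.254 to 0.79 CPM of 2 months. The change from 2 months was 0.34 uncorrected (edgeR adjusted p = 0.383), 0.97 GC corrected (SE 0.29, edgeR adjusted p = 0.00783) and 1.06 with replicate 1 alone (interval 0.18 to 1.93, edgeR adjusted p = 0.156). In the corrected and the single-library fit the size was close to 1 log2 unit, and the call rests on the correction. Over 34 alternatives of this pair 2 passed.

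The other genes of the pathway were read from lists in the 24 with 2 months comparison. Of 31 tested further p53 targets, 3 rose and 2 fell, where 10.2% and 12.3% of all genes did, and the median change was -0.02 beside -0.00 over all genes. The rises included Rrm2b, a subunit of ribonucleotide reductase for DNA repair (0.17 on the log2 scale, edgeR adjusted p = 0.00324), and Xpc, which recognises damaged DNA (0.17, edgeR adjusted p = 0.00795). The falls included Perp, a membrane protein of apoptosis and cell junctions (-0.26, edgeR adjusted p = 0.0164). Along the trend Rrm2b, Xpc and Ptprv, a receptor phosphatase gene, rose, the last by 0.17 per 10 months (edgeR adjusted p = 0.0491). In the fit of all 25 libraries none of the 31 passed, with Alb as a covariate 2 did and with no filter 3 did. Of all 17799 genes, 932 passed in the first of these fits and 2123 in the second.

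Of the 17 genes of p53 and its regulators, 3 fell and none rose, where 12.3% of all genes fell and 10.2% rose. The median was -0.03. The falls were the acetyltransferase Ep300 (-0.16, edgeR adjusted p = 0.000672), the damage-sensing kinase Atm (-0.19, edgeR adjusted p = 0.00318) and the damage adaptor Trp53bp1 (-0.11, edgeR adjusted p = 0.0141). Trp53 itself, chosen after its values were seen, had means of 16.8, 16.3, 15.7 and 16.7 CPM at 2, 9, 15 and 24 months. In the fit of all 25 libraries none of the 17 passed, and with Alb as a covariate 1 did. Of all 17799 genes, 932 and 2123 passed in these 2 fits.

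Of the 19 genes of CDK inhibitors and the Rb pathway, 1 rose and 3 fell, where 10.2% of all genes rose and 12.3% fell. With the GC correction 2 rose and 5 fell, and the uncorrected median was -0.09. The cyclin Ccnd2, used by dividing precursor cells, fell by 0.74 (SE 0.087, edgeR adjusted p = 1.38e-05), from 85.9 ± 13.2 to 51.3 ± 3.44 CPM (SD, n = 5), and fell along the trend by 0.35 per 10 months. The cyclin Ccnd1 rose by 0.22 (edgeR adjusted p = 0.000409) and the transcription factor E2f3 fell by 0.18 (edgeR adjusted p = 0.00244). Beside Ccnd2, 3 of 7 tested markers of dividing cells fell and none rose (1 rose and 3 fell with the GC correction). Their summed level was 25.3 to 33.2 CPM at 2 months and 22.6 to 27.3 CPM at 24 months. Most of that sum was Pcna, with means of 15.5 and 17.0 CPM. Mki67 had means of 3.88 and 1.66 CPM and Top2a of 3.27 and 1.02 CPM. The part of dividing cells in the fall of Ccnd2 was not tested.

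Of 27 tested secretory genes linked with senescence, 7 rose and none fell, where 10.2% of all genes rose and 12.3% fell. Their median was 0.17 on the log2 scale beside -0.00 over all genes. The colony-stimulating factor Csf1 rose by 0.45 (SE 0.051, edgeR adjusted p = 3.26e-07), from 26.6 ± 2.11 to 36.4 ± 1.2 CPM (SD, n = 5). Mmp12, a metalloprotease of macrophages, rose by 3.64 (edgeR adjusted p = 8.62e-06) from 0.0507 ± 0.0626 to 0.631 ± 0.229 CPM (SD, n = 5), near the lowest levels counted. The chemokine Cxcl10 rose by 1.85 (edgeR adjusted p = 0.000895), at 0.128 to 0.358 CPM at 2 months and 0.428 to 1.96 CPM at 24 months.

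Over the trend 9 secretory genes rose and none fell, where 7.76% of all genes rose and 9.02% fell. Among them the chemokine Ccl3 rose by 0.87 per 10 months (edgeR adjusted p = 0.000438). In the fit of all 25 libraries 4 secretory genes rose at 24 months, where 569 of 17799 genes did. Microglia markers moved with them: from 2 to 24 months 7 of 10 rose and none fell, where 10.2% of all genes rose and 12.3% fell. Their summed level was 340 to 402 CPM at 2 months and 385 to 433 CPM at 24 months. No microglia marker was at 0 in all 5 libraries of either age. Astrocyte markers had 4 rises of 8 and neuron markers 1 fall of 8. Of 3 tested lymphocyte markers 2 rose, with a median of 1.36 on the log2 scale. Their summed level over the whole list was 10.3 to 11.7 CPM (median 10.4) at 2 months and 10 to 35.7 CPM (median 13.6) at 24 months. Of this, Cd4 had means of 8.96 and 8.84 CPM at these ages. Liver markers had a median of 1.46, with 14 of 14 above 0, of which 2 passed with edgeR, 2 with DESeq2 and 11 with limma-voom. Their summed level was 439 to 656 CPM at 2 months and 631 to 861 CPM at 24 months. Most of that sum was Ttr, which is also a choroid plexus marker, at 422 to 477 and 544 to 642 CPM. Alb had means of 27.3 and 105 CPM at these ages. With Alb as a covariate 5 of the 27 secretory genes rose and none fell, where 948 of 17799 genes rose and 1175 fell. The part of the other cell types was not tested.

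Of 9 tested nuclear and lysosomal markers of senescence, 1 rose and 2 fell, where 10.2% of all genes rose and 12.3% fell. The lamin gene Lmnb1, whose loss accompanies senescence, fell by 0.22 (edgeR adjusted p = 0.0224), from 11.1 ± 0.542 to 9.49 ± 0.796 CPM (SD, n = 5). The heterochromatin protein gene Cbx5 fell by 0.13 (edgeR adjusted p = 0.00224), and the chromatin protein gene Hmga1 rose by 0.23 (edgeR adjusted p = 0.00893). The lysosomal marker Glb1 did not pass, with means of 26.4 and 25.4 CPM at 2 and 24 months. Along the trend 1 of the 9 rose and none fell, where 7.76% of all genes rose and 9.02% fell. With the GC correction 1 rose and 1 fell along it.

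**Figure D4:**
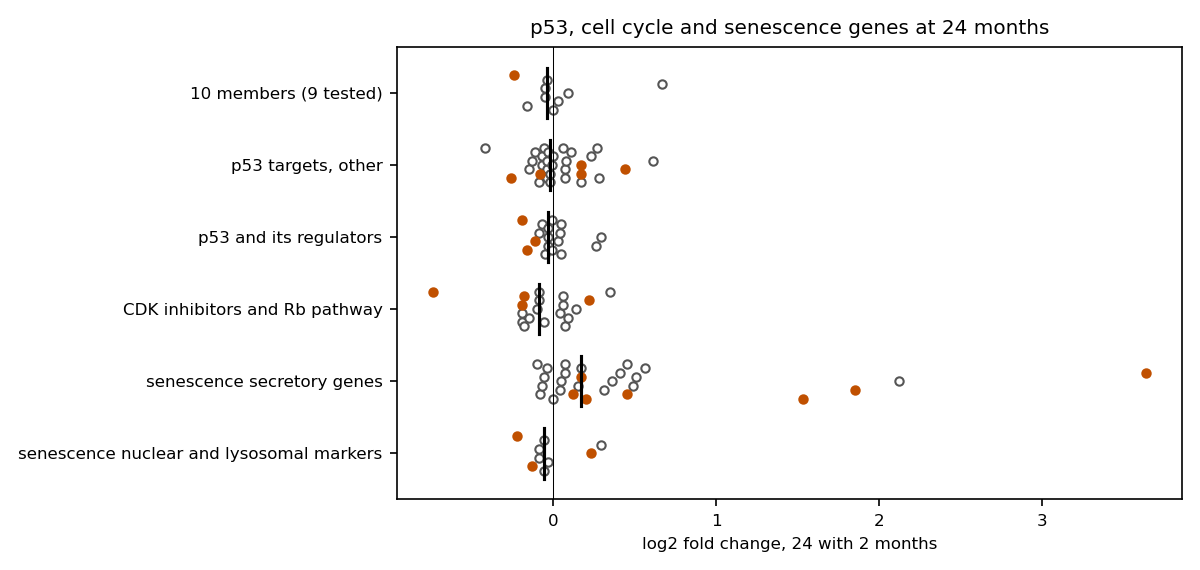
Log2 fold change of 24 with 2 months (x axis) for the 9 tested genes of the set and for tested genes of 5 further lists (y axis), with filled orange points at an adjusted p under 0.05 and a black bar at the median of each list. The secretory genes have a median of 0.17 and 7 rises, and the other medians lie between -0.09 and -0.02.

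Pathways that share targets with p53 were read as well. From 2 to 24 months 10.2% of all genes rose and 12.3% fell. Of the 16 genes of the Atf4 stress response, which also drives Sesn2, 4 rose and 1 fell. Examples were the kinase-like Trib3 (0.82, edgeR adjusted p = 0.00443), the serine synthesis enzyme Psat1 (0.16, edgeR adjusted p = 0.00476) and the lipoprotein receptor Vldlr, which fell by 0.23 (edgeR adjusted p = 1.34e-06). Of 12 FoxO genes and targets 1 rose, Txnip, an inhibitor of thioredoxin (0.53, edgeR adjusted p = 0.00288), and 1 fell, the FoxO factor Foxo4 (-0.17, edgeR adjusted p = 0.0206). Of 10 glucocorticoid responsive genes none passed with edgeR, 1 had a fall with an unadjusted p under 0.05, DESeq2 called 1 fall and limma-voom none. Over the trend 1 of them, the feedback inhibitor Errfi1, fell by 0.09 per 10 months (edgeR adjusted p = 0.0286).

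Cdkn1a differed between libraries of the same age, among 2 to 24 months most at 15 months. Its coefficient of variation was 9.03%, 15.4%, 23.7% and 9.02% at 2, 9, 15 and 24 months, and 28.0% at 30 months. Its log2 level minus the age mean was therefore compared over the 20 libraries of 2 to 24 months with that of the other 8 tested genes and of 6 glucocorticoid responsive genes, 14 relations in all. Of these 1 passed: with Pdk4, a kinase that shuts off pyruvate use and responds to glucocorticoids and fasting, Pearson's r was 0.73 (two-sided permutation p = 0.00032, 0.00448 adjusted). Spearman's rho was 0.70 (permutation p = 0.00155, 0.0217 adjusted). Without the 2 libraries farthest from the median in Cdkn1a, 15 months replicate 5 and 9 months replicate 5, r was 0.64.

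At 9 months, where Cdkn1a stood at 20.6, 21.1, 19.1, 16 and 14.8 CPM, Pdk4 stood at 18.8, 20.5, 18.3, 15.4 and 13.3 CPM, in the same order of libraries. At 15 months Cdkn1a stood at 15, 15.4, 18.1, 11.8 and 9.62 CPM and Pdk4 at 19.1, 17.3, 18.3, 15.8 and 14.5 CPM. At both ages 0 of 5 libraries had the 2 genes on opposite sides of their age means. At 2 months, where Cdkn1a stood at 14.2, 11.5, 13.7, 12.5 and 14.2 CPM, Pdk4 stood at 12.3, 11, 13, 14.9 and 16.2 CPM, with opposite directions in 3 of 5 libraries. At 24 months, where Cdkn1a stood at 14, 12.7, 12.5, 14.2 and 11.4 CPM, Pdk4 stood at 17.8, 14.3, 15.6, 14.5 and 13.1 CPM, with opposite directions in 2 of 5.

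The relations other than that with Pdk4 did not pass. Among the p53 targets r was 0.50 with Trp53inp1 (permutation p = 0.0177, 0.0868 adjusted), 0.19 with Zmat3, 0.18 with Sesn2, 0.18 with Bbc3, 0.16 with Ccng1, 0.08 with Phlda3, -0.07 with Mdm2 and -0.00 with Eda2r. Among the glucocorticoid responsive genes r was 0.51 with Tsc22d3 (0.32 without the 2 farthest libraries) and 0.38 with Sgk1, both 0.0868 after adjustment of the permutation p, 0.33 with Zbtb16, 0.30 with Fkbp5 and 0.23 with Per1. Whether the relation with Pdk4 differs from these was not tested.

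**Figure D5:**
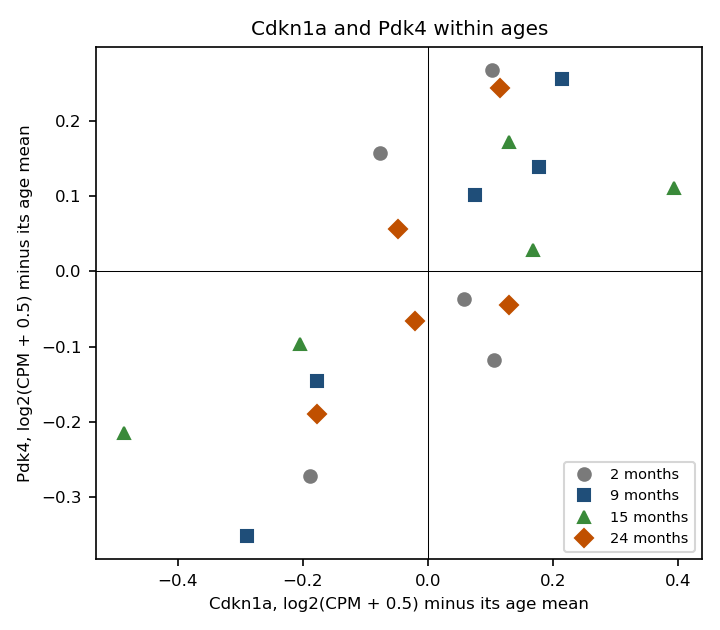
Log2(CPM + 0.5) minus the mean of its age for Cdkn1a (x axis) and Pdk4 (y axis) in the 20 libraries of 2, 9, 15 and 24 months, 1 point per library. Libraries high in Cdkn1a for their age tend to be high in Pdk4 (r = 0.73), with 15 months replicate 5 and 9 months replicate 5 at the lower left.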

How the data were processed

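Reads were mapped with STAR 2.4.1d to GRCm38 and counted per gene with featureCounts 1.4.6-p4 after CASAVA 1.7, per the submitters' processing notes; the annotation release and strand setting are not given in the sources used here. The deposited table holds the authors' raw count per gene, 17800113 to 31261121 per library, not normalised. From these counts edgeR 4.0.16 (R 4.3.3) gave TMM scaled CPM and robust quasi-likelihood tests of 17799 genes kept by filterByExpr, with two-sided p values adjusted by Benjamini-Hochberg over all genes and a threshold of 0.05. Pairs and the linear trend among 2 to 24 months used 20 libraries and pairs with 30 months all 25. SE is the absolute log2 fold change over the root of F. The GC correction was a loess curve (span 0.5) per library over 13801 protein-coding genes of at least 1 CPM, used as an offset. Cdkn2a, under the filter, had exact permutation tests, and the Cdkn1a relations 100000 permutations within ages. Alternatives were other scaling, no filter, the GC correction, DESeq2 1.42.0, limma-voom 3.58.1, other sets of libraries, Alb as a covariate and leaving out single libraries.

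The members and lists were chosen with earlier results of these data known. All 10 genes were named, with up to 3 genes per list past the test at 24 against 2 months or in the trend, by smallest p, and the 3 genes most like a member past either test. The comparison of 24 with 9 months, the GC corrected test of Cdkn2a and the fit with no filter and GC correction were added after values were seen. Tests were checked on simulated data.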

Additional observations from a re-analysis of the deposited data

Results flagged for a closer look

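In 50 groups of 5 libraries (10 genes at 5 ages), 5 held 1 library whose gap to the nearest other exceeded 0.71 of the range of the group, where chance gives about 1 in 20. Mdm2 stood at 35.1 CPM in 2 months replicate 1, against 48.8 to 50.7 in the others. Ccng1 stood at 106 CPM in 9 months replicate 1, against 110 to 112, and at 86.7 CPM in 30 months replicate 1, against 27.4 to 38.4. This last library is the one of its age without the GC lean. Trp53inp1 stood at 28.2 CPM in 2 months replicate 5, against 22.3 to 23.4, and at 29 CPM in 24 months replicate 1, against 21.4 to 22.0.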

How the results depend on the processing

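The fall of Zmat3 from 2 to 24 months passed under all 28 alternatives. The number of the 9 genes past the test from 2 to 9 months was 2. It was 1 with no filter, 0 in the fit of all 25 libraries (407 of 17799 genes) and 1 to 2 without single libraries. From 2 to 15 months it was 2, and 0 in the fit of all 25 libraries (206 of all genes). Without single libraries it was 2 to 4 (4 without 2 months replicate 1). From 2 to 24 months, and in the trend, it was 1, and 1 to 2 without single libraries. From 15 to 24 months it was 4, and 1 with the GC correction (12.9% of all genes). It was 1 in the fit of all 25 libraries (168 of all genes) and 3 to 5 without single libraries. From 9 to 24 months it was 4, and 1 in the fit of all 25 libraries (1585 of all genes). With Alb as a covariate it was 2 (3474 of all genes), and without single libraries 3 to 5. From 2 to 30 months it was 8 (57.8% of all genes), and 5 with the GC correction (45.5% of all genes). It was 5 in the 10 libraries of that pair and 7 to 8 without single libraries. From 24 to 30 months it was 8 (54.5% of all genes), and 5 with the GC correction (41.3% of all genes). It was 3 with no filter and the GC correction and 6 to 8 without single libraries. Counts over all genes are not given here for the 10 libraries of 2 and 30 months or for the fits with no filter. In those fits the counts of the 9 genes therefore cannot be set against all genes.

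With 1 library at 30 months the sign of the change from 2 months differed for Cdkn1a (-0.21), Mdm2 (0.03), Phlda3 (-0.03), Sesn2 (-0.05) and Zmat3 (-0.06). The sign of that from 24 months differed for Cdkn1a (-0.18), Mdm2 (0.19), Phlda3 (-0.12) and Sesn2 (-0.00). None of these values lay farther from 0 than -0.21, and they do not show a change in the other direction. Phlda3 also changed sign from 24 months with the GC correction, with the filter (-0.04) and without it (-0.04). Apart from the alternatives with fewer libraries, the cause was not tested.

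Over all genes the count past the test moved by more than 1.5 times in the fit of all 25 libraries: from 2625 to 407 at 9, 2244 to 206 at 15 and 4009 to 932 at 24 months against 2 months, 4232 to 168 at 24 against 15 and 5423 to 1585 at 24 against 9 months. With the GC correction it was 1432 at 15 against 2 months and 2296 at 24 against 15 months, where the split of rises and falls went from 1928 and 2304 to 810 and 1486. Without 15 months replicate 1 it was 1352 at 15 against 2 months. With Alb as a covariate it was 2123 at 24 against 2, 3474 at 24 against 9 months and 999 in place of 2988 in the trend. With 1 library at 30 months it was 1338 in place of 10281 against 2 months and 415 in place of 9697 against 24 months, and 6187 in the 10 libraries of that last pair. The trend was not fitted in all 25 libraries. Counts of 0 to 8 per library limit Cdkn2a. No paired analysis was possible because replicate numbers follow accession order and pair no libraries across ages.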
